A study of Homo sapiens with 48 samples.

Results

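The 6 genes described here encode nuclear receptors related to the androgen receptor. NR3C1 encodes the glucocorticoid receptor, NR3C2 the mineralocorticoid receptor and PGR the progesterone receptor. ESR1 and ESR2 encode the estrogen receptors alpha and beta, and ESRRA encodes estrogen-related receptor alpha (ERR alpha). They were picked by gene symbol from a table of 61817 entries, 61815 of them genes, and each symbol was found in 1 row. All 6 were among the 20009 genes that passed the filter on low counts. NR3C1, NR3C2 and ESRRA were over the filter's level of 0.467 CPM (counts scaled to library size) in all 48 libraries. ESR2 was over it in 14 libraries, ESR1 in 10 and PGR in 6, where 3 were needed.

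RNA-Seq was run on cultures of 22Rv1, a human castration-resistant prostate cancer cell line, in 16 groups of 3 libraries. The parental cells are named Rv1-WT, and Rv1-Luc denotes a subline that carries firefly luciferase from a lentivirus. The other 4 lines derive from cells in which CRISPR/Cas9 had knocked out both CDK8 and CDK19, the kinases of the Mediator complex, and all carry an introduced kinase. dKO-19 and dKO-19M re-express wild-type CDK19 or its kinase-dead D173A mutant, and dKO-8 and dKO-8M, made from knockout cells that already carried an empty vector, re-express wild-type CDK8 or its D173A mutant. For 72 hours the cells received 0.1% DMSO (vehicle) or SNX631, which inhibits CDK8 and CDK19, at 500 nM. The dKO derivatives were grown with fetal bovine serum (FBS). Rv1-WT and Rv1-Luc were grown with FBS or with charcoal-stripped serum (CSS), from which androgens and other steroids are depleted. The sources used here do not say whether a derivative is 1 clone, so a difference between lines and a difference between clones cannot be told apart. The study's methods describe the 3 libraries of a group as biological replicates, and do not say how the cultures were separated.

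The steroid receptors are held by heat shock proteins until a hormone binds, and then act in the nucleus as transcription factors. The androgen, glucocorticoid, mineralocorticoid and progesterone receptors bind the same class of DNA element, and the glucocorticoid receptor in particular can drive genes of the androgen program in prostate cancer cells. The estrogen receptors bind a different element. ERR alpha has no known natural steroid ligand and is known for driving genes of mitochondrial energy metabolism with the coactivator PGC-1 alpha.

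The genes lie on 5 chromosomes (GENCODE 29 gene bounds on GRCh38). NR3C1 is at chr5:143277931-143435512 on the minus strand, NR3C2 at chr4:148078762-148444698 on the minus strand and PGR at chr11:101029624-101130524 on the minus strand. ESR1 is at chr6:151656691-152129619 on the plus strand, ESR2 at chr14:64084232-64338112 on the minus strand and ESRRA at chr11:64305572-64316743 on the plus strand. The counts are per gene, so the start site in use cannot be read from them. RefSeq on GRCh38.p14 gives 7 distinct start windows for NR3C1, 6 for ESR1, 5 for ESR2, 4 for NR3C2, 3 for PGR and 1 for ESRRA.

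The 250 bases before the outermost start are shown for the 2 genes with a called response to serum, NR3C1 and ESR1, and for ESRRA, the receptor with the highest level. They come from RefSeq, are printed 5′ to 3′ on the gene's own strand, and capitals mark the letters TGTTCT, the core of the element shared by the corticosteroid receptors.
NR3C1, chr5:143435513-143435762, minus strand: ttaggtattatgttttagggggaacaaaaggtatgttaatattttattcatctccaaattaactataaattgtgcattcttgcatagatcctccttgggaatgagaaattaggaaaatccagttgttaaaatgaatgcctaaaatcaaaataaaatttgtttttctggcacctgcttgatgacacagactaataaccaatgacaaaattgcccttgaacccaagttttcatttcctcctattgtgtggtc
ESR1, chr6:151656422-151656671, plus strand: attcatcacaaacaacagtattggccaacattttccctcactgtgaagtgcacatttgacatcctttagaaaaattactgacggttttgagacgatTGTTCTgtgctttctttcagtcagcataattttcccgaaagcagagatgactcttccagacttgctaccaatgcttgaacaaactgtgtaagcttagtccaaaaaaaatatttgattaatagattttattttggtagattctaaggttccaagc
ESRRA, chr11:64305274-64305523, plus strand: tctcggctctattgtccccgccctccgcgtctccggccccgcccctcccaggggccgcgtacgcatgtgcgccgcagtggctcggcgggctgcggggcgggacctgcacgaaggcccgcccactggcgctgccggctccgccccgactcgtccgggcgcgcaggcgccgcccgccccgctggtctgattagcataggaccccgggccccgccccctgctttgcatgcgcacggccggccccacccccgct
The ESR1 window shown held TGTTCT, beginning 154 bases before the start. It was low in GC (36.0%), as was that of NR3C1 (32.8%), while that of ESRRA had 78.0% GC. The other windows, not shown, were richer in GC, at 39.6% to 82.0% for NR3C1 and 40.4% to 60.8% for ESR1. On both strands of the 26 member windows, TGTTCT was found in 1, the estrogen core AGGTCA in 2 overlapping windows of ESR2, and the ERR core AAGGTCA, which contains AGGTCA, in 0. Over the 35116 windows of all 27305 genes, these shares were 12.4%, 12.1% and 3.44%. The full corticosteroid and estrogen palindromes with their 3-base spacers were each in 0 member windows and in 0.00285% of all windows. These matches are descriptions of letters, and binding was not measured.

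Library totals ran from 13.2 to 31.5 M counts. CDK8 and CDK19 were checked first. CDK8 stood at 60.5 to 71.5 CPM in dKO-8 and at 118 to 134 CPM in dKO-8M, against 21.3 to 29.8 CPM in the lines without introduced CDK8, and CDK19 stood at 469 to 519 CPM in dKO-19 and at 298 to 360 CPM in dKO-19M, against 101 to 281 CPM in the lines without introduced CDK19. The transcript of the kinase that was knocked out and not put back was still counted, and counts cannot separate an edited from an intact transcript. All 8 luminal prostate markers of the list, among them FOXA1 and KRT8, passed the filter, with sums of 2458 to 5847 CPM. Of 13 stromal and immune markers 7 passed, and the list summed to 7.87 to 18.0 CPM. The highest counts of this list in a library were 204 for COL1A1, 202 for ACTA2 and 51 for PDGFRB. Among its immune genes, CD3E of T cells had at most 2 counts in a library, and the leukocyte gene PTPRC at most 15. dKO-19M vehicle replicate 1 stood apart from replicates 2 and 3 of its group (chi-square per degree of freedom 16.5 and 15.97).

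The receptors fell into 2 classes by level. Per kilobase of the merged exons of GENCODE 29, ESRRA had the highest level in all 16 groups (group means of 31.98 to 52.7 CPM per kb), and NR3C1 (2.67 to 9.49) and NR3C2 (2.58 to 5.10) took ranks 2 and 3. ESR1 reached 0.0962 CPM per kb at most, ESR2 0.0585 and PGR 0.0298. Exon lengths of the transcripts in use were not measured, so only the distance between the classes can be read from these values. Unscaled for length, the mean over all libraries was 117 CPM for ESRRA, 39.3 for NR3C1, 25.6 for NR3C2, 0.394 for ESR2, 0.227 for ESR1 and 0.190 for PGR.

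NR3C1 varied most among the 3 well-counted receptors, with a 3.56-fold ratio between its highest and lowest group means, against 1.98 for NR3C2 and 1.65 for ESRRA. In Rv1-WT under vehicle it stood at 48.3, 44.4 and 44.9 CPM in FBS and at 86.2, 89.6 and 85.4 CPM in CSS. Under SNX631 the same line had 36.6, 36.1 and 39.6 CPM in FBS and 63.0, 61.6 and 64.7 CPM in CSS. Both pairs of groups were apart, and the CSS vehicle group was the highest of the 16.

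**Figure D1:**
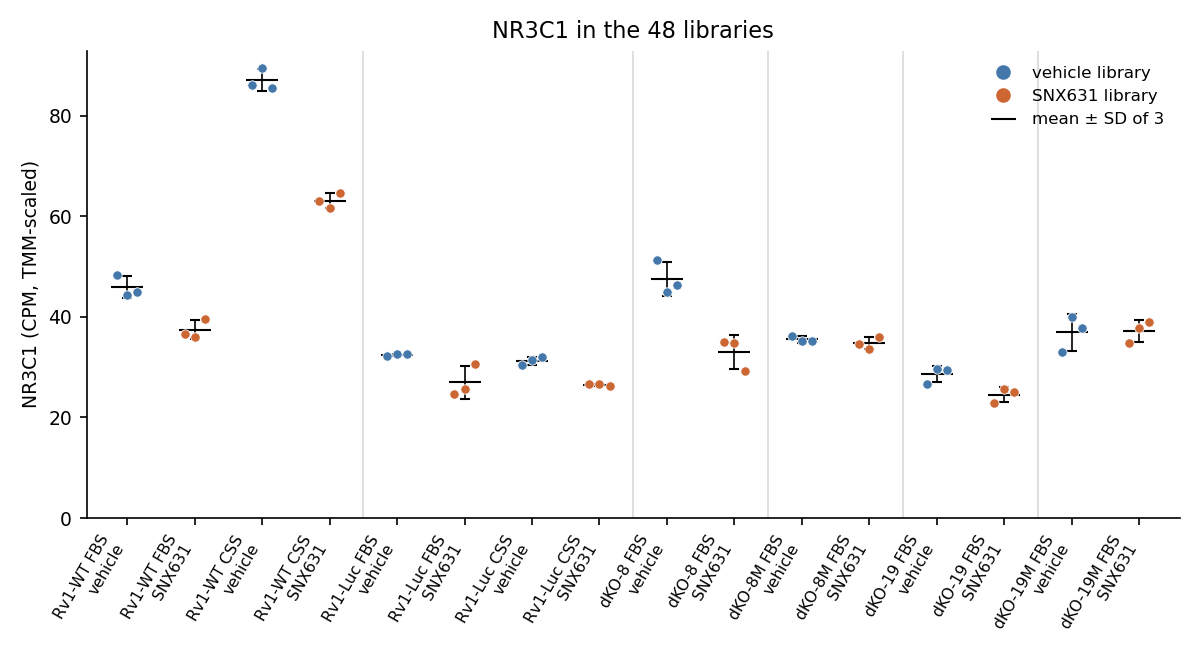
NR3C1 level (vertical axis, TMM-scaled CPM) in each library of the 16 groups (horizontal axis), with vehicle in blue, SNX631 in orange, and black bars for the mean ± SD of 3 libraries. The Rv1-WT CSS vehicle libraries sit at 85.4 to 89.6 CPM, above all others, and the Rv1-Luc libraries stay between 24.6 and 32.6 CPM in both sera.

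The comparison of CSS with FBS asks how the cells respond when steroids are withdrawn. Calls were made with edgeR's quasi-likelihood test and needed both a Benjamini-Hochberg false discovery rate (FDR) below 0.01 and more than a 1.5-fold change. In Rv1-WT under vehicle, 2 of the 6 receptors were called, against 10.9% of all genes tested. NR3C1 rose in CSS by a log2 fold change of 0.92 ± 0.0631 (SE, n = 3 against 3, FDR 6.73e-19), or 1.89-fold. ESR1 fell by 1.89 on the log2 scale (SE 0.465, FDR 0.00065). Under SNX631, NR3C1 alone was called in Rv1-WT, against 7.83% of all genes, with a log2 fold change of 0.75 ± 0.0659 (SE, FDR 1.77e-14). When tested directly against a 1.5-fold change, the NR3C1 rise under SNX631 had an FDR of 0.0624 and the ESR1 fall an FDR of 0.0241, and neither was called. In bulk RNA, fewer cells that express a gene and less RNA per cell cannot be told apart.

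Rv1-Luc gave another picture for NR3C1. Its libraries stood at 32.2, 32.6 and 32.5 CPM in FBS and at 30.4, 31.4 and 32.02 CPM in CSS under vehicle. Under SNX631 they stood at 24.6, 25.7 and 30.7 CPM in FBS and at 26.7, 26.6 and 26.2 CPM in CSS. The log2 differences between sera were -0.05 (95% interval -0.19 to 0.08) and -0.03 (-0.17 to 0.11). The difference between the CSS effects of the 2 lines under vehicle was itself called, at -0.97 ± 0.0919 (SE, FDR 5.09e-13), the 1 member call against 8.65% of all genes for that difference. Among the receptors with a value, edgeR called 0 of 5 in Rv1-Luc for CSS against FBS under either treatment, against 1.49% of all genes under vehicle and 1.51% under SNX631. DESeq2 also called 0, and 0 of them under vehicle and 1 under SNX631 had an unadjusted p under 0.05.

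SNX631 tested the effect of blocking kinase activity on the receptors. NR3C1 was lower with the drug in the lines with active kinase, by amounts short of the 1.5-fold limit (0.585 on the log2 scale). The log2 fold change was -0.29 ± 0.0688 for Rv1-WT in FBS (SE, FDR 0.00151) and -0.46 ± 0.0603 in CSS (FDR 1.08e-08). In Rv1-Luc it was -0.26 ± 0.0675 in FBS (FDR 0.00256) and -0.24 ± 0.0692 in CSS (FDR 0.00704). In these 4 comparisons all 3 SNX631 libraries lay below the 3 vehicle libraries.

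In dKO-8, NR3C1 stood at 51.4, 44.9 and 46.3 CPM under vehicle and at 35.1, 34.8 and 29.2 CPM under SNX631, a log2 fold change of -0.52 ± 0.0645 (SE, FDR 6.44e-09). In dKO-8M the levels were 36.3, 35.1 and 35.1 CPM and 34.6, 33.7 and 36.0 CPM, and the groups overlapped (-0.03, 95% interval -0.17 to 0.10). The difference between these effects was -0.49 ± 0.0922 (SE, FDR 0.000177), short of the 1.5-fold limit. NR3C1 in dKO-8M under vehicle was also below dKO-8 under vehicle, at -0.42 ± 0.064 (FDR 3.23e-07). These 2 values share the dKO-8 vehicle libraries.

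The CDK19 pair did not show the same order. In dKO-19, NR3C1 stood at 26.7, 29.6 and 29.4 CPM under vehicle and at 22.8, 25.6 and 25.1 CPM under SNX631 (-0.22 ± 0.0716, FDR 0.0187). With scaling by library size alone that value was -0.17 (FDR 0.0895). In dKO-19M the levels were 32.9, 39.9 and 37.9 CPM and 34.8, 37.8 and 38.9 CPM (0.01, 95% interval -0.12 to 0.15). The difference between the effects, -0.24 ± 0.0967, had an FDR of 0.119. The kinase-dead line was here above the active one under vehicle (0.37 ± 0.0668, FDR 1.05e-05), the opposite side from the CDK8 pair, and whether these 2 differences differ was not tested.

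Between lines under vehicle, NR3C1 was called in 2 of 3 comparisons. It was lower in Rv1-Luc than in Rv1-WT by -0.50 ± 0.067 in FBS (FDR 5.3e-09), short of the limit, and by -1.48 ± 0.063 in CSS (FDR 1.19e-28), where it was called. In dKO-19 it was lower than in dKO-8 by -0.73 ± 0.0664 (FDR 7.5e-14), also called, but with an FDR of 0.107 against a 1.5-fold change. For Rv1-Luc against Rv1-WT, 1 of 6 receptors was called in FBS, which was ESR1 (17.8% of all genes). In CSS 2 of 6 were called, NR3C1 and ESR1 (31.1% of all genes). ESR1 passed the filter through its Rv1-WT libraries, so its difference between these lines follows from the filter. For dKO-19 against dKO-8, 1 of the 5 receptors with a value was called, NR3C1 (6.51% of all genes). For the kinase-dead against the active line, edgeR and DESeq2 called 0 of 4 in the CDK8 pair (7.03% of all genes) and 0 of 5 in the CDK19 pair (7.6% of all genes), where 2 and 3 receptors had an unadjusted p under 0.05. Rv1-Luc libraries also held more immunoglobulin gene counts (844 to 2105, against 339 to 512 in Rv1-WT), whose part in the line differences was not tested.

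NR3C2 had a narrower range and no call in any comparison. Under vehicle it stood at 27.8, 29.3 and 25.1 CPM in Rv1-WT in FBS and at 27.2, 23.6 and 27.2 CPM in CSS, and these groups overlapped (-0.07, 95% interval -0.23 to 0.08). With SNX631 the levels were 23.4, 19.9 and 20.7 CPM in FBS and 20.8, 21.9 and 21.3 CPM in CSS, below all vehicle libraries of the same serum. The log2 fold changes were -0.36 ± 0.0794 (FDR 0.000724) and -0.29 ± 0.0773 (FDR 0.00338). In Rv1-Luc they were -0.20 ± 0.0734 in FBS (FDR 0.044, and not under 0.05 in 5 of 6 fits that left out 1 library) and -0.36 ± 0.077 in CSS (FDR 0.000226). Under vehicle, NR3C2 was lower in Rv1-Luc than in Rv1-WT, at -0.26 in FBS and -0.25 in CSS. For CSS against FBS in Rv1-Luc under SNX631 it was -0.22. Each had an FDR under 0.05, and the last had 0.0671 with library size only.

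The dKO derivatives with active kinase had values of the other sign for NR3C2. dKO-19 stood at 26.9, 27.1 and 27.3 CPM under vehicle and at 34.8, 32.9 and 33.4 CPM under SNX631, with all 3 treated libraries higher (0.31 ± 0.0699, FDR 0.000482). dKO-8 stood at 24.9, 24.1 and 25.7 CPM and at 27.5, 28.0 and 27.0 CPM (0.14 ± 0.0711, FDR 0.202). The kinase-dead lines gave -0.11 (dKO-8M, FDR 0.672) and 0.20 (dKO-19M, FDR 0.0995). The difference in effect between dKO-19 and dKO-19M was 0.11, with a 95% interval of -0.09 to 0.31, which includes 0. In the CDK8 pair it was 0.25 (95% interval 0.05 to 0.45, FDR 0.136), and 0.24 with an FDR of 0.0305 in a fit of those libraries alone. Under vehicle, NR3C2 in dKO-8M was above dKO-8 by 0.25 ± 0.0706 (SE, FDR 0.0042), short of the 1.5-fold limit, with an FDR of 0.0596 without dKO-8M vehicle replicate 3. Both CDK8 values share the vehicle libraries. The difference between the Rv1 lines and the dKO lines was not tested.

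ESRRA, the highest of the receptors, stood at percentile 90.1 of the genes tested by mean CPM. In dKO-19 it stood at 154, 154 and 171 CPM under vehicle and at 118, 128 and 121 CPM under SNX631, and all treated libraries were lower (-0.38 ± 0.066, FDR 1.76e-05). In dKO-19M it stood at 160, 132 and 132 CPM and at 101, 112 and 105 CPM, again with all treated libraries lower (-0.41 ± 0.0664, FDR 0.000177). Without dKO-19M vehicle replicate 1, the library that stood apart, the second value was -0.31 (FDR 0.00816), and in a fit of the dKO-19M libraries alone it was -0.41 with an FDR of 0.0893. The effects of the 2 lines differed by 0.03 (95% interval -0.16 to 0.22). In dKO-8 the value was 0.03 (FDR 0.831). In dKO-8M it was -0.18 (FDR 0.294), with all 3 treated libraries (105, 103 and 107 CPM) below the vehicle libraries (118, 117 and 121 CPM), and in a fit of the dKO-8M libraries alone its FDR was 0.000142. The difference between these effects was 0.21 (FDR 0.21), with an FDR of 0.000416 in the fit of its own libraries. The effect in dKO-19 was below that in dKO-8 by -0.41 ± 0.0937 (FDR 0.00401).

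In the Rv1 lines ESRRA stood between 89.5 and 129 CPM. For CSS against FBS in Rv1-WT it was lower under vehicle (-0.18) and under SNX631 (-0.21), each at an FDR under 0.05. When 1 library was left out, these FDRs reached 0.174 and 0.0999. With scaling by library size alone, the vehicle value was -0.12 (FDR 0.16). The SNX631 effect on ESRRA in Rv1-WT was 0.03 (95% interval -0.11 to 0.17) in FBS and 0.00 (-0.14 to 0.14) in CSS. In Rv1-Luc the effect was -0.17 (FDR 0.0679) in FBS and -0.31 ± 0.0671 (FDR 0.000481) in CSS, where vehicle libraries had 125, 126 and 123 CPM and treated ones 101, 109 and 93.1 CPM. Between lines, ESRRA was higher in dKO-19 than in dKO-8 (0.44 ± 0.0661, FDR 7.72e-07) and, in CSS, in the Rv1-Luc line than in the parental one (0.36 ± 0.068, FDR 9.34e-06), both short of the 1.5-fold limit. Under vehicle, smaller values at an FDR under 0.05 were 0.17 for Rv1-Luc against Rv1-WT in FBS and -0.18 for dKO-19M against dKO-19. Their FDRs reached 0.114 and 0.199 when 1 library was left out. ESRRA had a fractional count in 25.0% of libraries, and its copies ESRRAP1 and ESRRAP2 had at most 1 and 2 counts.

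**Figure D2:**
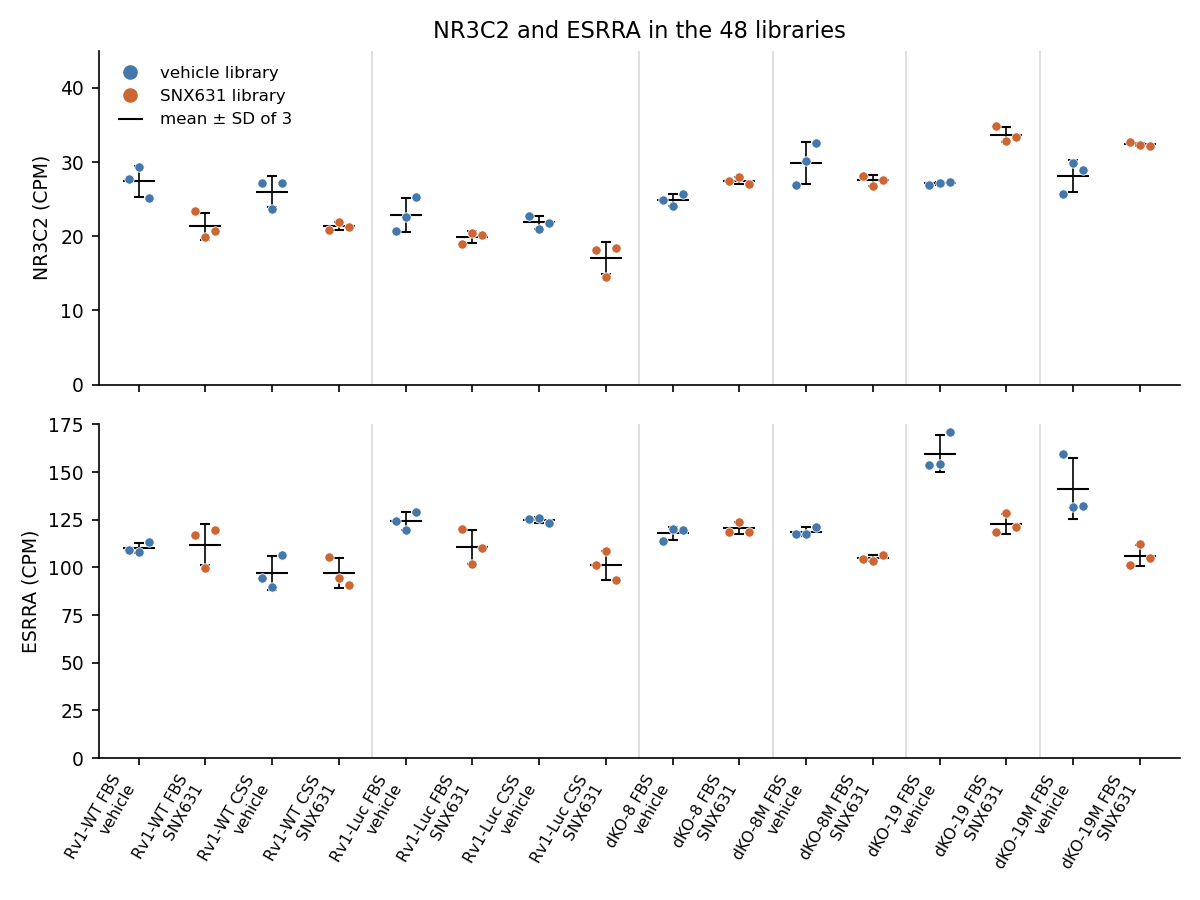
NR3C2 (top) and ESRRA (bottom) in each library (vertical axes, TMM-scaled CPM from 0) by group (horizontal axis), with vehicle in blue, SNX631 in orange and black bars for the mean ± SD of 3 libraries. The highest NR3C2 group is dKO-19 under SNX631 (32.9 to 34.8 CPM), and the highest ESRRA group is dKO-19 under vehicle (154 to 171 CPM).

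Across the 8 SNX631 comparisons, edgeR and DESeq2 called 0 of 39 member effects, and 18 of the 39 had an unadjusted p under 0.05. The background of calls was 2.39% of all genes in Rv1-WT in FBS, 4.23% in Rv1-WT in CSS, 3.67% in Rv1-Luc in FBS, 4.06% in Rv1-Luc in CSS, 1.71% in dKO-8, 0.015% in dKO-8M, 3.41% in dKO-19 and 0.09% in dKO-19M. At an FDR under 0.05 with no fold limit, the members passed in 2 of 6, 3 of 6, 2 of 5, 3 of 5, 1 of 4, 0 of 4, 3 of 5 and 1 of 4 cases in the same order. The background at that limit was 14.5%, 26.5%, 20.3%, 23.9%, 13.5%, 0.485%, 20.6% and 2.41% of all genes. A total of 15 member effects passed it, and 13 of these had a negative sign. For the 6 differences between SNX631 effects, edgeR and DESeq2 called 0 members. The background for these was 0.905% (dKO-8 minus dKO-8M), 2.07% (dKO-19 minus dKO-19M), 0.885% (dKO-19 minus dKO-8), 0.295% (Rv1-WT, CSS minus FBS), 0.08% (Rv1-Luc, CSS minus FBS) and 0.175% (Rv1-Luc minus Rv1-WT in FBS), and 3, 1, 2, 1, 0 and 1 members had an unadjusted p under 0.05.

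The same looser limit passed more receptors in the comparisons of serum and line. For CSS against FBS it passed 3 of 6 in Rv1-WT under vehicle (44.9% of all genes) and 2 of 6 under SNX631 (40.6%), and 0 of 5 (14%) and 1 of 5 (12.7%) in Rv1-Luc. For the kinase-dead against the active line it passed 2 of 4 in the CDK8 pair (30.5%) and 3 of 5 in the CDK19 pair (33.3%). For Rv1-Luc against Rv1-WT it passed 5 of 6 in FBS (52.5%) and 4 of 6 in CSS (67%). These include ESR1, and PGR in FBS, which met the filter on low counts through their Rv1-WT libraries. For dKO-19 against dKO-8 the looser limit passed 2 of 5 (33%). For the differences between effects, in the order above, it passed 1 (6.2%), 0 (9.87%), 1 (4.77%), 1 (3.13%), 0 (0.51%) and 0 (1.48%) receptors, and 1 for the CSS effect of Rv1-Luc minus Rv1-WT (34.1%).

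**Figure D3:**
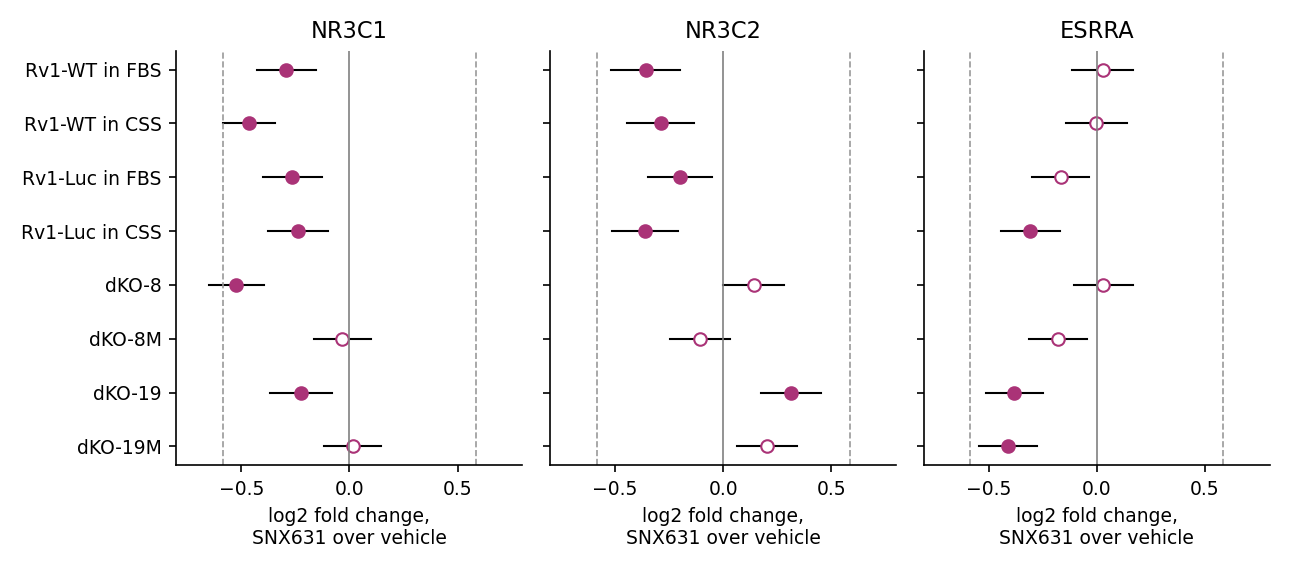
Log2 fold change of SNX631 over vehicle (horizontal axes) for NR3C1, NR3C2 and ESRRA in the 8 settings (vertical axis), with lines for the 95% interval, filled points at an FDR under 0.05 and dashed lines at the 1.5-fold limit of 0.585. NR3C1 is nearest 0 in the kinase-dead lines (-0.03 and 0.01), while ESRRA is lowest in dKO-19 and dKO-19M (-0.38 and -0.41).

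The estrogen and progesterone receptors were counted at low level. ESR1 had 175 counts in the 12 Rv1-WT libraries and 12 counts in the 36 libraries of the other lines, 28 of which had 0. In Rv1-WT under vehicle ESR1 stood at 1.23, 1.27 and 1.49 CPM in FBS (21, 19 and 23 counts) and at 0.222, 0.310 and 0.518 CPM in CSS (4, 5 and 10 counts), and the groups were apart. Under SNX631 it stood at 0.965, 0.516 and 0.917 CPM in FBS and at 1.16, 0.960 and 0.815 CPM in CSS, and these overlapped (0.26, 95% interval -0.59 to 1.10).

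The SNX631 effect on ESR1 was 1.44 ± 0.478 in CSS (SE, FDR 0.0194, all 3 treated libraries above the vehicle libraries) and -0.70 ± 0.41 in FBS (FDR 0.285, 95% interval -1.53 to 0.12), and the difference between them was 2.15 ± 0.63 (FDR 0.0444). Neither value was called. In a fit of the libraries of each comparison alone, the CSS effect had an FDR of 0.00633 and the difference an FDR of 0.00781, and both were called. The CSS effect had an FDR of up to 0.114 when 1 library was left out (without Rv1-WT CSS vehicle replicate 1), and the difference of up to 0.17 (without the same library). The FDR of the difference was not under 0.05 in 11 of the 12 fits that left out 1 library, nor with library size only (0.0506), with no filter (0.0864) or after thinning to the smallest library (0.0554). These counts of 4 to 23 per library set the limit on precision.

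ESR1 passed the filter through its Rv1-WT libraries, so a difference between Rv1-WT and the other lines follows from the filter and is given as a description. Rv1-Luc under vehicle had 2 counts in FBS against 63 in Rv1-WT, which puts Rv1-WT 47.0-fold higher (exact binomial 95% interval 12.5 to 396, counting error only). In CSS Rv1-Luc had 3 counts against 19, a ratio of 8.56 (2.52 to 45.2). The fit called both, at FDR 5.19e-09 and 0.00138. The second call was lost without Rv1-WT CSS vehicle replicate 3 (FDR 0.0202), and without Rv1-Luc CSS vehicle replicate 2 or 3.

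PGR, whose transcription is commonly induced by estrogen receptor alpha, had 0 to 10 counts per library. Its group means were highest in the 4 Rv1-WT groups, where the vehicle libraries in FBS had 0.588, 0.402 and 0.389 CPM. In Rv1-Luc in FBS the vehicle libraries had 0.121, 0.168 and 0.182 CPM, all below them (-1.54 on the log2 scale). PGR too passed the filter through Rv1-WT libraries, so this difference is a description, and it had an FDR of 0.0193 in the fit and 0.0664 with no filter. In 7 of 16 groups PGR had at most 3 counts in each library, the floor used here. dKO-19 under vehicle had 10 counts and dKO-19M had 1, and dKO-19 was 12.4-fold higher with an exact interval of 1.77 to 540. That difference had an FDR of 0.0125 and was called only without dKO-19M vehicle replicate 3, the library with the 1 count. The antisense gene PGR-AS1 had 0 to 6 counts.

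ESR2 had 1.5 to 16 counts per library and lay between 0.103 and 0.738 CPM, with every pair of neighbours in the order of its 16 group means overlapping. Its effects had 95% intervals about 1.6 to 2.9 log2 units wide, and the lowest FDR was 0.274, for dKO-19M against dKO-19. Its count was fractional in 52.1% of libraries, so reads were split with another feature and the ESR2 level is uncertain.

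**Figure D4:**
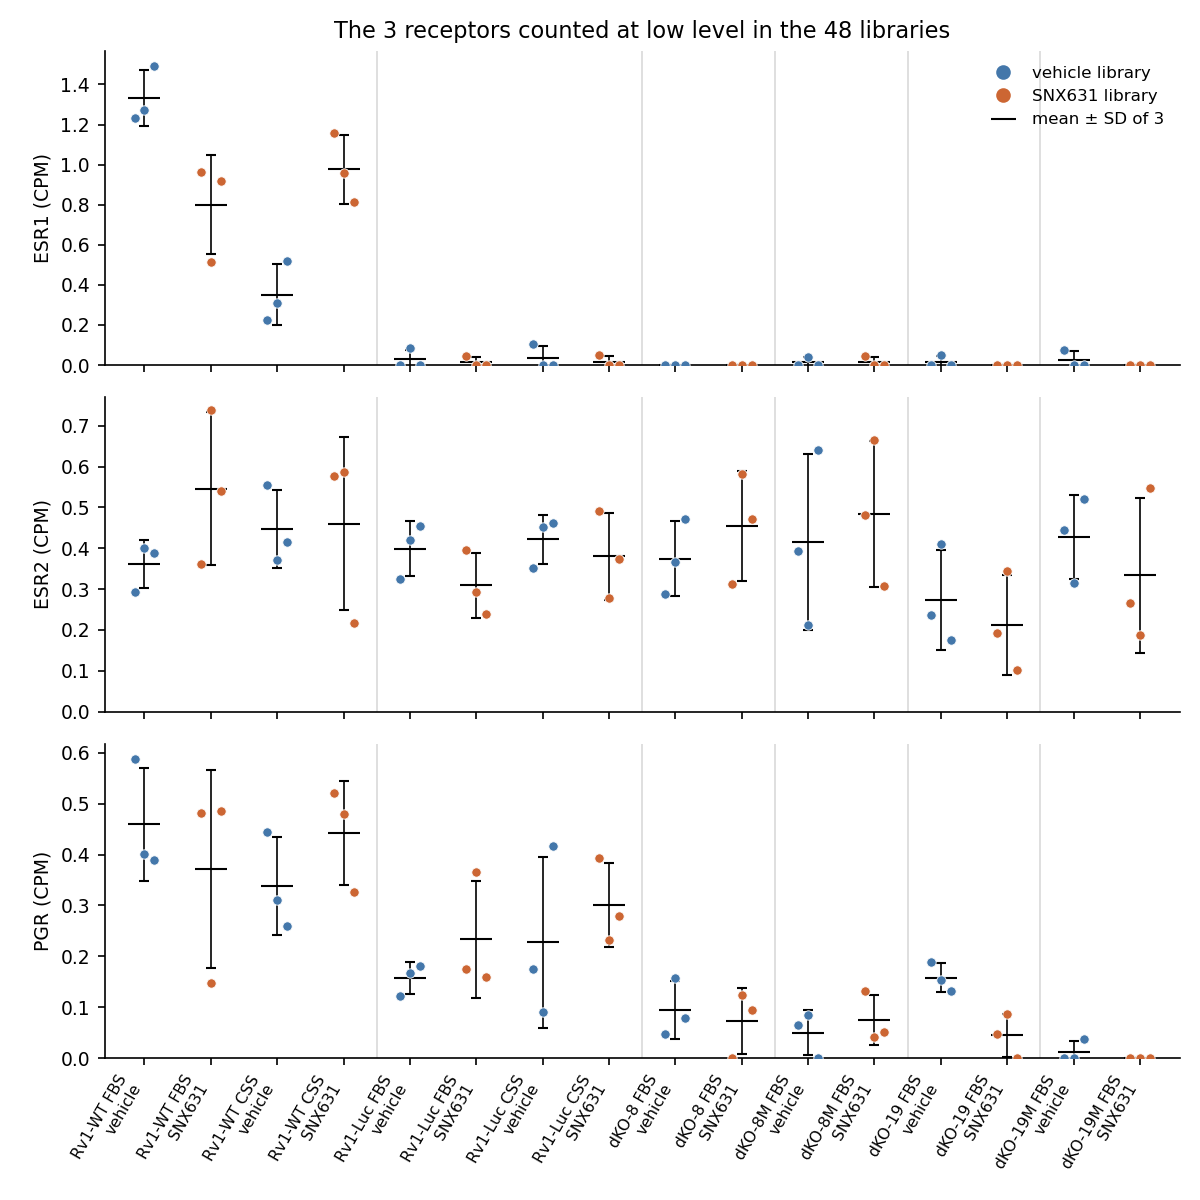
ESR1, ESR2 and PGR in each library (vertical axes, TMM-scaled CPM from 0) by group (horizontal axis), with vehicle in blue, SNX631 in orange and black bars for the mean ± SD of 3 libraries. ESR1 is at 0.222 to 1.49 CPM in Rv1-WT and at most 0.106 CPM elsewhere, while ESR2 shows no group apart from its neighbours.

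The genes around the receptors were described by lists written from general knowledge. Of 20 corticosteroid receptor targets, 19 were tested. In Rv1-WT under vehicle, 5 rose and 4 fell in CSS, where 10.9% of all genes were called in either direction. The median log2 fold change was 0.04, against 0.01 over all genes. PDK4, which restrains the entry of pyruvate into mitochondria, rose (1.65), as did the phosphatase gene DUSP1 (0.84). FKBP5, a cochaperone gene induced by androgen and glucocorticoid receptors, fell (-0.84), and so did the transcription factor gene KLF9 (-1.26). TSC22D3, which encodes the glucocorticoid-induced leucine zipper protein, rose by 0.74 and PER1 was not called. The list thus moved in both directions while the NR3C1 level rose.

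In Rv1-Luc under vehicle, 1 corticosteroid target rose and 4 fell in CSS (median -0.26), where 1.49% of all genes were called. KLF9 (-1.87), FKBP5 (-0.86), ANGPTL4 (-1.95) and ZBTB16 fell. TSC22D3 had a value of -0.08 (FDR 0.755). With SNX631, 3 of the 19 rose and 0 fell in Rv1-WT in FBS (2.39% of all genes called), and 4 and 0 in CSS (4.23%). In Rv1-Luc these were 3 and 1 in FBS (3.67%) and 2 and 0 in CSS (4.06%). PDK4 rose in all 4 settings (1.69, 1.59, 1.96 and 1.78) and in dKO-19 (1.45). TSC22D3 rose in 3 of them (0.68, 1.06 and 0.73). In dKO-8 the list had 0 higher and 1 lower call (1.71% of all genes), and in dKO-19 1 and 1 (3.41%). In dKO-8M (0.015%) and dKO-19M (0.09%) it had 0. FKBP5 stood at 171 to 775 CPM and was called in none of the 8 drug comparisons. SGK1, a kinase gene of the corticosteroid response, was low at 0.61 to 2.55 CPM.

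Single genes of the luminal and stromal lists were called with the drug. Of the 8 luminal markers, 2 rose in Rv1-WT in FBS (2.39% of all genes called) and 2 in CSS (4.23%). In Rv1-Luc 2 rose in FBS (3.67%) and 3 in CSS (4.06%). In dKO-8 (1.71%) and dKO-19 (3.41%) 1 rose, in dKO-8M (0.015%) 0 were called and in dKO-19M (0.09%) 1 fell. The stromal and immune list had 1 higher call in each serum of both Rv1 lines and 1 in dKO-19. TMPRSS2, an androgen-regulated protease gene of luminal cells, rose with SNX631 in the FBS (1.36) and the CSS (1.94) cultures of Rv1-WT, and COL3A1, a fibroblast collagen gene with at most 33 counts in a library, rose in the same comparisons (3.12 and 2.23). It was the 1 call among the 7 tested stromal and immune markers in each. The list summed to 10.8 to 13 CPM under vehicle and 11.2 to 13.3 CPM under SNX631 in FBS, and to 15.1 to 18 and 14.1 to 18 CPM in CSS. The part of these genes in the receptor results was not tested.

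Of 14 chaperones that hold the steroid receptors before hormone binds, edgeR called 0 in each of the 8 SNX631 comparisons. Without the fold limit, at an FDR under 0.05, 8 of the 14 were higher and 0 lower in dKO-8, where 13.5% of all genes passed. At that limit 0 were higher and 4 lower in Rv1-WT in FBS (14.5% of all genes), 3 and 3 in Rv1-WT in CSS (26.5%), 1 and 2 in Rv1-Luc in FBS (20.3%), 0 and 3 in Rv1-Luc in CSS (23.9%) and 0 and 2 in dKO-19 (20.6%). In dKO-8M (0.485%) and dKO-19M (2.41%) 0 passed. In Rv1-WT under vehicle, 3 of 14 fell in CSS and 0 rose (median -0.39), where 10.9% of all genes were called. At an FDR under 0.05, 12 were lower and 0 higher, where 44.9% of all genes passed. The called genes were HSPA8 (-1.40), FKBP4, a cochaperone of steroid receptors (-1.14), and DNAJA1 (-0.77). HSPA8 had fractional counts in 62.5% of libraries and is uncertain. In Rv1-Luc under vehicle 0 of 14 were called (1.49% of all genes). At an FDR under 0.05, 3 were lower and 0 higher (median -0.04), where 14% of all genes passed.

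Of 16 receptor coregulators, 4 rose and 1 fell in CSS in Rv1-WT under vehicle (median 0.39), where 10.9% of all genes were called. PPARGC1A, which encodes PGC-1 alpha, the coactivator of ERR alpha, rose (1.19), as did the acetyltransferase gene CREBBP (0.89) and the coactivator gene NCOA3 (0.61), while the arginine methyltransferase gene PRMT1 fell (-0.83), with fractional counts in 64.6% of libraries. In Rv1-Luc 0 of 16 were called (median 0.03), against 1.49% of all genes. With SNX631, PPARGC1A rose in Rv1-WT in CSS (0.68), the 1 call of this list there, against 4.23% of all genes.

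The list of ERR alpha targets held 14 genes, and these included ESRRB and ESRRG, which encode related receptors. Of the 14, 13 were tested, ESRRB and ESRRG among them, and edgeR called 0 with SNX631 in any setting. At an FDR under 0.05, 1 was higher and 2 were lower in dKO-19 (20.6% of all genes) and 0 passed in dKO-19M (2.41%). ESRRA itself was lower in both lines. Under vehicle at that limit, 10 of 13 were higher and 0 lower in dKO-19 against dKO-8 (33% of all genes), with ESRRA higher. In dKO-19M against dKO-19, 2 were higher and 8 lower (33.3%), with ESRRA lower. For Rv1-Luc against Rv1-WT, also with ESRRA higher, 1 was higher and 9 lower in FBS (52.5%), and 4 and 3 in CSS (67%). Whether the list follows ESRRA was not tested. In Rv1-WT under vehicle 0 were called in CSS, and at an FDR under 0.05 1 was higher and 8 were lower (median -0.16), where 44.9% of all genes passed. ESRRG, which encodes the related receptor ERR gamma, stood at 5.15 to 21.1 CPM and fell in dKO-19M against dKO-19 (-0.82). ESRRB had at most 8 counts in a library.

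Of 14 estrogen receptor targets, 9 were tested. With SNX631, 1 of the 9 rose and 0 fell in Rv1-WT in FBS (2.39% of all genes called), and 1 and 1 in CSS (4.23%). In Rv1-Luc 1 rose and 0 fell in FBS (3.67%) and in CSS (4.06%). In dKO-8 0 rose and 1 fell (1.71%), and in dKO-19 0 and 3 (3.41%). In dKO-8M (0.015%) and dKO-19M (0.09%) 0 were called. CA12, a carbonic anhydrase gene, rose with SNX631 in both Rv1 lines and both sera (0.64 and 0.82 in Rv1-WT, 0.85 and 0.64 in Rv1-Luc, FBS before CSS). STC2 (-0.92), RARA (-0.61) and GREB1 (-0.82) fell in dKO-19, and STC2 fell in dKO-8 (-0.72). In CSS, STC2 (1.18) and the growth factor gene AREG (3.58) rose in Rv1-WT under vehicle (10.9% of all genes called), while ESR1 fell. In Rv1-Luc 0 of 9 were called (1.49% of all genes). TFF1 had at most 4 counts in a library and was not tested.

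Of 10 epithelial sodium transport genes, the classical domain of the mineralocorticoid receptor, 8 were tested. With SNX631, 0 of the 8 rose and 1 fell in Rv1-WT in FBS (2.39% of all genes called), and 1 and 0 in CSS (4.23%). In Rv1-Luc these were 1 and 2 in FBS (3.67%) and 0 and 1 in CSS (4.06%). In dKO-8 0 rose and 1 fell (1.71%), and in dKO-19 0 and 2 (3.41%). In dKO-8M (0.015%) and dKO-19M (0.09%) 0 were called. CNKSR3, a scaffold gene of the sodium channel complex, had fractional counts in 50.0% of libraries. With the drug it fell in Rv1-WT in FBS (-0.66), in Rv1-Luc in FBS (-0.64) and CSS (-0.94), in dKO-8 (-1.13) and in dKO-19 (-0.99). In dKO-19M against dKO-19, 1 of the 8 rose and 5 fell (median -0.81, with 7.6% of all genes called), among them NEDD4L (-0.76), ATP1B1 (-0.86) and SCNN1B (-1.65), and CNKSR3 rose (0.85). In dKO-8M against dKO-8, 0 rose and 1 fell (median -0.24, with 7.03% of all genes called). NR3C2 itself differed by 0.05 (FDR 0.622) in dKO-19M against dKO-19, and by 0.25 in dKO-8M against dKO-8. A list of 12 genes held mostly enzymes that make or break down receptor ligands, and also NR0B1 and NR0B2, which encode nuclear receptors. Of the 12, 6 were tested, and NR0B1 and NR0B2 were not among them. HSD11B2, which inactivates cortisol, rose with SNX631 in Rv1-WT in CSS (0.89), and HSD11B1, which regenerates it, had at most 1 count.

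**Figure D5:**
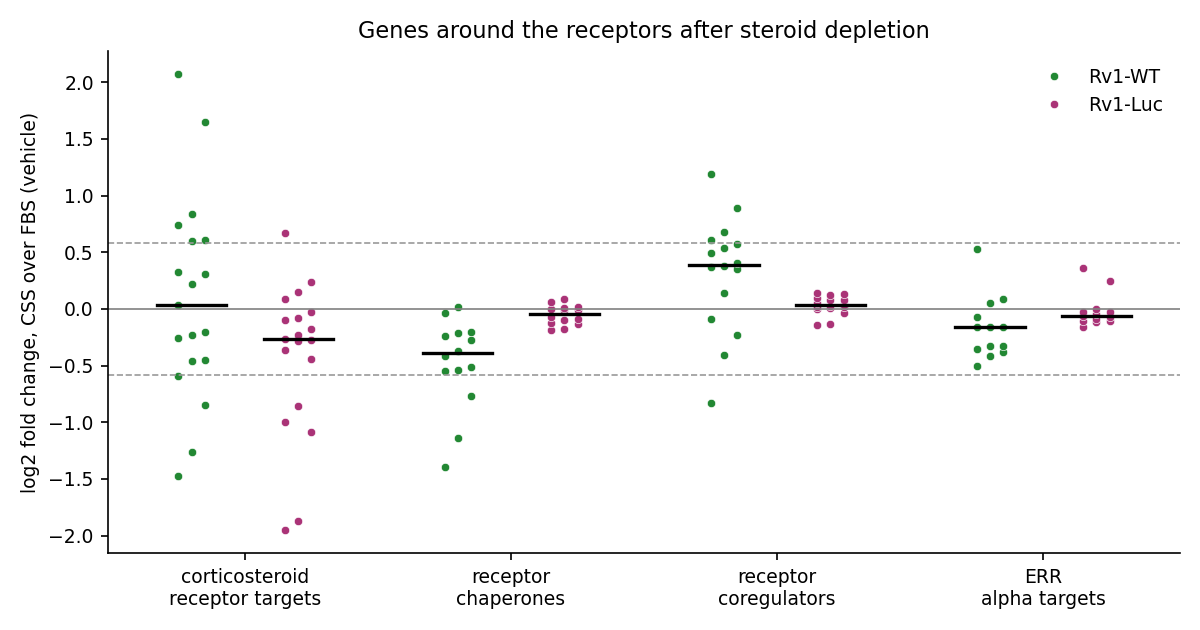
Log2 fold change of CSS over FBS under vehicle (vertical axis) for each tested gene of 4 lists (horizontal axis), in Rv1-WT (green) and Rv1-Luc (magenta), with a black bar for the list's median and dashed lines at the 1.5-fold limit. Receptor chaperones have a median of -0.39 in Rv1-WT and -0.04 in Rv1-Luc, and coregulators 0.39 and 0.03.

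The genes whose group means followed each receptor most closely were found by Pearson's r of log2(CPM + 0.5) over the 16 groups, among 14054 genes. For NR3C1 they were SPOP (0.964), LRIF1 (0.958) and CCPG1 (0.951). For NR3C2 they were KIF11 (0.900), SKIDA1 (0.899) and CTCF (0.879), and for ESRRA MRPS34 (0.893), SSNA1 (0.848) and ATP5MC2 (0.846). For ESR1 they were PAPSS1 (0.947), GNPNAT1 (0.947) and CAT (0.946), for PGR BDNF (0.965), ZNF860 (0.958) and GALK2 (0.957), and for ESR2 KCNG1 (0.784), KLF12 (0.770) and TP53I13 (0.769). Among the receptors, NR3C1 and NR3C2 had an r of 0.03, and ESR1 and PGR an r of 0.802. ESR1 and PGR were at the floor in 12 and 7 of the 16 groups. Both were highest in Rv1-WT, the line through which they passed the filter, so a shared high level there follows from the filter. A link between the 2 genes was not tested. The groups share lines, and these values are descriptions with no test.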

How the data were processed

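RNA-Seq libraries of 48 samples (16 groups of 3) were analysed from 1 table of expected counts per gene, which the authors deposited. The submitters' processing notes name FastQC, cutadapt 2.8, STAR 2.7.2b, featureCounts and Subread 2.0.3, with the builds GRCh38.p13 and GRCm39. The library kit was directional. The strand setting, the treatment of multiply mapped reads and the annotation release are not given in the sources used here. Since 18.4% of the nonzero counts were fractional, reads shared between features were split.

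Counts were rounded and scaled by TMM (factors 0.911 to 1.07), and genes with a low count were dropped (filterByExpr, minimum count 10, minimum total 15), which left 20009 of 61815 genes. The 2 transgene entries were left out of the tests. Totals were 13.2 to 31.5 M (median 21.4 M). A single edgeR 4.0.16 quasi-likelihood model (with limma 3.58.1, R 4.3.3) of all 48 libraries had 32 residual degrees of freedom and a common biological coefficient of variation of 4.2%. It gave 17 comparisons and 7 differences between effects, with Benjamini-Hochberg adjustment over all genes. A call needed an FDR under 0.01 and a fold change over 1.5. A receptor with at most 3 counts in every library of both groups was given no fold change. Intervals of count ratios are exact binomial and cover counting error only.

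The 6 members and the gene lists were chosen with earlier results of these data known. Members were tested in every comparison where they had a value, and not every value is printed. From each list, up to 4 called genes with the lowest FDR were named for a comparison. FKBP5, TSC22D3, PER1, SGK1, GREB1, TFF1, ESRRB and ESRRG were named besides. The scripts were tested on simulated data. Alternatives were other size factors, other filters, DESeq2 1.42.0, a test against a 1.5-fold change, thinning, rounding down, separate fits, a replicate block, an FDR limit of 0.05 alone, and leaving out each library. The androgen receptor gene is not reported here.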

Additional observations from a re-analysis of the deposited data

Results flagged for a closer look

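The response of NR3C1 to CSS under vehicle differed between the lines: the difference between the effects, Rv1-Luc minus Rv1-WT, was -0.97 on the log2 scale (edgeR FDR 5.09e-13). NR3C1 was higher in CSS in 3 of 3 Rv1-WT libraries, and the effect in Rv1-Luc was -0.05 (FDR 0.681). Rv1-Luc libraries also held more immunoglobulin gene counts, and their part in this difference was not tested.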

How the results depend on the processing

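The 120 member effects gave 2096 values under 11 alternatives and with each of 48 libraries left out. Of these, 2054 stayed called or stayed uncalled, 6 lost the call, 36 gained one and 0 called values changed sign. Among the values called in neither fit, 76 changed sign. With an FDR limit of 0.05 and no fold limit, the members passing with SNX631 were 2 in Rv1-WT in FBS, 3 in Rv1-WT in CSS, 2 in Rv1-Luc in FBS, 3 in Rv1-Luc in CSS, 1 in dKO-8, 3 in dKO-19 and 1 in dKO-19M. For CSS under SNX631 they were 2 in Rv1-WT and 1 in Rv1-Luc, for the kinase-dead lines 2 (CDK8) and 3 (CDK19), for Rv1-Luc against Rv1-WT 5 in FBS and 4 in CSS, for dKO-19 against dKO-8 2, and for the differences dKO-8 minus dKO-8M, dKO-19 minus dKO-8 and Rv1-WT CSS minus FBS 1 each. The counts for Rv1-Luc against Rv1-WT include ESR1, and PGR in FBS, which met the filter through their Rv1-WT libraries. A mean of at least 1 CPM drops ESR1 and leaves 1 call for CSS in Rv1-WT under vehicle, and 0 in FBS and 1 in CSS for Rv1-Luc against Rv1-WT. The test against a 1.5-fold change left 1 call for CSS in Rv1-WT under vehicle, 0 under SNX631 and 0 for dKO-19 against dKO-8. Fits of the libraries of each comparison alone gave 1 call for SNX631 in Rv1-WT in CSS, 1 for Rv1-Luc against Rv1-WT in CSS and 1 for Rv1-WT CSS minus FBS. The cause was not tested. With 1 library left out, Rv1-Luc against Rv1-WT in CSS had 1 to 2 calls and dKO-19M against dKO-19 had 0 to 1. Same-numbered replicates did not pair (all pairs over a correlation of 0.1 in 0 of 17 comparisons, range -0.0933 to 0.295), and a replicate block left 2 member calls for CSS in Rv1-WT under vehicle and 0 in each SNX631 comparison. Low counts limit ESR1, ESR2 and PGR.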
